A study of Mus musculus with 6 samples.

Results

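Among the genes spotted on a small muscle array were 4 that sense, buffer or act downstream of calcium, or serve as a comparison for those that do. They were Ppp3cb, which encodes a catalytic subunit of the phosphatase calcineurin, Calm2, which encodes calmodulin, Pvalb, which encodes the calcium buffer parvalbumin, and Ppp2ca, which encodes the catalytic subunit of phosphatase 2A. Their probes were picked by gene symbol, as 4 of the 20 named genes of the array, with no threshold on a measured value. Each gene had 6 probes, so the 4 genes took 24 of the 132 probes, which formed 22 sets with and without a name. The study set flexor digitorum brevis (FDB) fibres, dissociated from the foot muscle of CD-1 mice aged 4 to 5 weeks, against fibres of the same kind after electrical stimulation. Fibres of both groups were kept for 3 days in MEM with 10% fetal bovine serum and gentamicin. One group received 3 days of stimulation in the pattern of slow-twitch fibres and the control group received none. RNA from over 100 single fibres was amplified and coupled to Cy3 or Cy5, and stimulated and control RNA were hybridised together. There were 3 independent experiments with 2 arrays each, on which the dyes were exchanged. The number of mice behind an experiment, and whether fibres of several mice were pooled, is not given in the sources used here.

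Calcineurin is a serine/threonine phosphatase that works only once calcium has risen and calcium-loaded calmodulin has bound its catalytic subunit. It then removes phosphate from NFAT transcription factors, which enter the nucleus, and in skeletal muscle this pathway is known for its link to the slow fibre programme that slow motor nerve activity maintains. Parvalbumin binds calcium in the cytoplasm of fast fibres and speeds their relaxation. Phosphatase 2A is a serine/threonine phosphatase too, but its catalytic subunit is steered by scaffold and regulatory subunits and not by calcium and calmodulin.

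The region before the start of each gene is shown because NFAT, the factor that calcineurin acts on, reads a short core motif. All 4 genes matched the RefSeq gene table by gene number, on chromosomes 14 (Ppp3cb), 17 (Calm2), 15 (Pvalb) and 11 (Ppp2ca). The promoter table of RefSeq, build GRCm38.p6, held 3 of the 4 genes, and Calm2 is named only. In the 250 bases before the start, capitals mark the NFAT core GGAAA on either strand (TTTCC where it lies on the other strand) and the MEF2 consensus, which is its own reverse complement. Ppp3cb lies at chr14:20546574-20546823 on the minus strand, Pvalb (the start farther upstream) at chr15:78206401-78206650 on the minus strand, and Ppp2ca at chr11:52098574-52098823 on the plus strand.
Ppp3cb: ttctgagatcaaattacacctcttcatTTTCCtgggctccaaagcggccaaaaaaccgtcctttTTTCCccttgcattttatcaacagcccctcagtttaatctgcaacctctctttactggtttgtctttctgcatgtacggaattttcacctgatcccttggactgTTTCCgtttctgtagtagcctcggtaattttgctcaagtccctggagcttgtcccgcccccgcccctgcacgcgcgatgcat
Pvalb: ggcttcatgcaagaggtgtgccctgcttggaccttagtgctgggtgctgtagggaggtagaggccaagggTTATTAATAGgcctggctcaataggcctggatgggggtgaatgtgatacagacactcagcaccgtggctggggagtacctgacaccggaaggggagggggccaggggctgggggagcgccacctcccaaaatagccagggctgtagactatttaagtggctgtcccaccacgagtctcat
Ppp2ca: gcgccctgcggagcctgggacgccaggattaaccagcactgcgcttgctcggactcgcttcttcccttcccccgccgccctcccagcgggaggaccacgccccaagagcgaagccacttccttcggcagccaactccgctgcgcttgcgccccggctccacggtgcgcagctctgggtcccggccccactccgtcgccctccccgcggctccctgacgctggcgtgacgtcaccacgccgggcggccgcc
The Ppp3cb window held 3 NFAT cores, all as TTTCC, and 6.39% of the 32851 windows in the table held as many or more. Of all windows, 55.6% held at least 1 core. No core was found in the Pvalb or Ppp2ca window, nor in the window of the second Pvalb start at chr15:78204238-78204487, which is not printed. G and C made up 48.4% of the Ppp3cb window, 58.4% and 71.6% of the printed and second Pvalb windows, and 73.6% of the Ppp2ca window. The median over all windows was 52.4%, and the bearing of base content on these counts was not tested. The MEF2 consensus, chosen for the search after the sequences had been seen, was found once, in the printed Pvalb window, against 2.92% of all windows. A match is a description of letters, and the arrays did not measure binding.

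Every value below is a log2 ratio of stimulated over control RNA, so a negative value means less signal from the stimulated fibres. The array gave ratios and no levels, so the genes cannot be ordered by abundance. The ratios come from bulk RNA of many fibres, in which fewer fibres that carry a transcript and less transcript per fibre cannot be told apart. The cell type could not be checked against markers, because of the lists for fibroblasts, satellite cells, endothelium, smooth muscle, Schwann cells and macrophages only Mgp was on the array, and it could not be tested. Mgp, a matrix protein gene listed for fibroblasts and smooth muscle, had filled spots in experiment 3 only, with log2 ratios of 0.82 (6 spots) and 1.01 (4 spots). Its part in the members' values was not tested.

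The direction of experiment 1 is not settled. The sample titles give which RNA is the numerator, and with that reading the deposited ratios of the 3 experiments correlated at r = 0.46 to 0.78 over 15 probe sets between arrays of the same dye orientation. In the deposited scanner intensities, read with the same labels and loess-normalised within the array, experiment 1 correlated with experiments 2 and 3 at r = -0.49 and r = -0.36 over 24 spot sets for arrays with stimulated RNA in Cy5. With stimulated RNA in Cy3 the same correlations were 0.03 and -0.11. Experiments 2 and 3 correlated with each other at 0.02 in Cy5 and 0.24 in Cy3 in these intensities. Results are therefore given with experiment 1 as titled, with its sign turned, and without it.

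A deposited ratio was present for 119 of the 144 spots of the 4 genes over the 6 arrays, or 82.6%, against 71.8% of 792 spots over all probe sets. Parvalbumin was the best covered of the 4, with 36 of 36 spots filled. Calcineurin had 29 of 36, calmodulin 28 and phosphatase 2A 26. Both arrays of experiment 1 held only 3 filled spots for Ppp3cb and 3 for Calm2. The spots missing there were in each case the first 3 probes of the set, numbers 67 to 69 for Ppp3cb and 121 to 123 for Calm2. Over all probe sets, experiment 1 had 57 empty cells among first triples and 36 among last triples. Ppp2ca had no filled spot on the array of experiment 3 with stimulated RNA in Cy5 and 3 on its swap partner. The rule by which cells were left empty is not given in the sources used here.

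**Figure D1:**
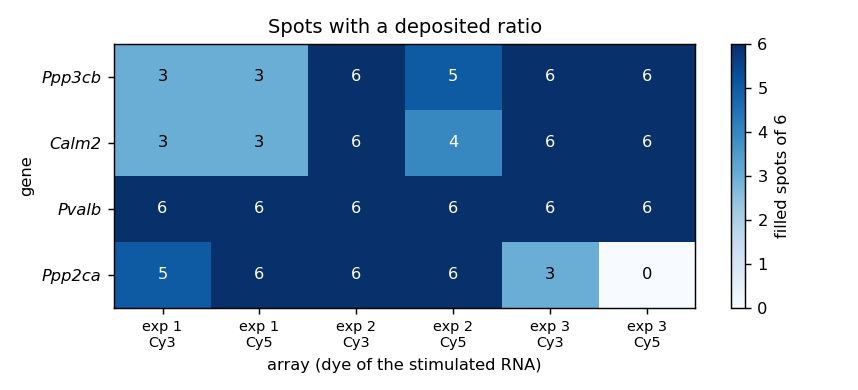
Number of the 6 spots of each gene that carried a deposited ratio (colour and digit) on each of the 6 arrays, named by experiment and by the dye of the stimulated RNA. Pvalb was complete on every array, Ppp3cb and Calm2 had 3 spots on both arrays of experiment 1, and Ppp2ca had 0 on 1 array of experiment 3.

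With experiment 1 as titled, the transcript of the calcineurin catalytic subunit was lower in stimulated fibres, and the call did not hold with that experiment turned or left out, as given further on for this gene, Calm2 and Pvalb. In experiment 1 the mean log2 ratio of the filled Ppp3cb spots was -0.75 with the stimulated RNA in Cy3 and -0.52 with it in Cy5. In experiment 2 these ratios were -0.66 and -0.63, and in experiment 3 they were -0.34 and -0.75. All 6 arrays lay below 0, and so did every filled Ppp3cb spot, from -1.07 to -0.11. Averaged over each dye swap, experiments 1, 2 and 3 gave -0.64, -0.65 and -0.55. The mean was -0.61 ± 0.055 (SD, n = 3 experiments), a 1.53-fold lower signal after stimulation, and the SD was the smallest of the 15 probe sets tested. With experiment 1 turned the SD was 0.714, rank 14 from the smallest. In limma's moderated test over those 15 probe sets the 95% interval was -0.91 to -0.31 and the adjusted p was 0.0159. The threshold was an adjusted p of 0.05, which 46.7% of the probe sets passed in either direction and 33.3% passed with a lower value.

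Calmodulin RNA was lower as well, again as titled. The Calm2 log2 ratios were -0.51 and -0.19 in experiment 1, with stimulated RNA in Cy3 and Cy5 in that order. They were -0.75 and -0.61 in experiment 2 and -0.85 and -0.61 in experiment 3. All 6 arrays again lay below 0, with both arrays of experiment 1 closer to 0 than the other 4. The experiments gave -0.35, -0.68 and -0.73, with a mean of -0.59 ± 0.204 (SD, n = 3), a signal in stimulated fibres of 0.666 times the control. The limma interval was -0.91 to -0.27 with an adjusted p of 0.0162. Which other transcripts the Calm2 probe may also read was not tested.

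Parvalbumin, the buffer, was the most completely measured of the 4 and had the least negative mean of the 3 calcium genes. The Pvalb log2 ratios were -0.42 and -0.69 in experiment 1, -0.52 and -0.28 in experiment 2, and -0.16 and -0.59 in experiment 3, each pair with stimulated RNA in Cy3 first. All 6 arrays and all 36 spots lay below 0. The experiments gave -0.56, -0.40 and -0.37, with a mean of -0.44 ± 0.100 (SD, n = 3), or 1.36-fold lower. Its limma interval was -0.75 to -0.14 and its adjusted p was 0.0257. Centring each array on the median of its probe sets moved Pvalb to -0.38 with a limma adjusted p of 0.0816. In that fit limma gave every probe set the same standard error (0.179), so this p-value does not measure the spread of Pvalb itself.

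**Figure D2:**
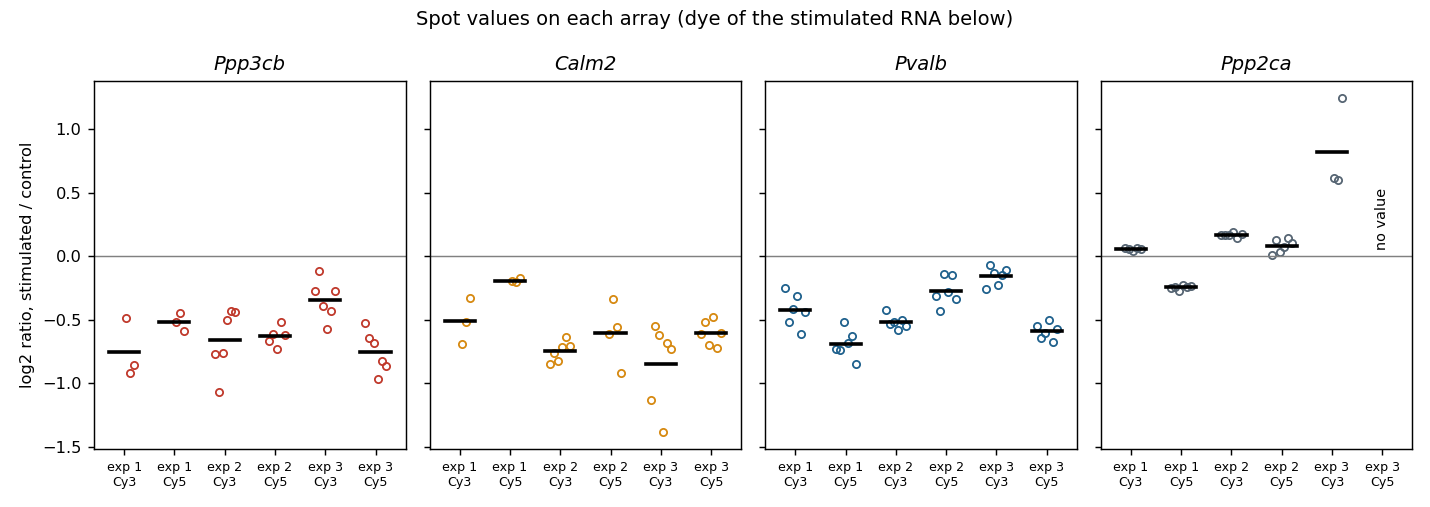
Log2 ratio of stimulated over control for each filled spot (open circles) of the 4 genes on each array, named by experiment and dye of the stimulated RNA. Black bars are the means over spots. All filled spots of Ppp3cb, Calm2 and Pvalb lie below 0, while the Ppp2ca means run from -0.24 to 0.82.

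Phosphatase 2A had values on both sides of 0 on the 5 arrays that measured it. The Ppp2ca log2 ratio was 0.06 with stimulated RNA in Cy3 and -0.24 with it in Cy5 in experiment 1, and 0.17 and 0.08 in experiment 2. The single array of experiment 3 with filled spots gave 0.82, from 3 spots that ran from 0.60 to 1.25. Thus 4 arrays were above 0 and 1 below, and the widest value came from the array with the fewest spots. Experiments 1 and 2 gave -0.09 and 0.12, with a mean of 0.02 ± 0.155 (SD, n = 2), and the test over 3 experiments was not run because experiment 3 lacked an array. Fitted over experiments 1 and 2 alone, it had a limma 95% interval of -0.34 to 0.37 and an adjusted p of 0.986. Its standard error in that fit, 0.166, was shared by all probe sets. With experiment 1 turned the mean was 0.11, and experiment 2 alone gave 0.12. With 1 array taken as enough for an experiment, the mean of 3 experiments was 0.28, the limma 95% interval was -0.14 to 0.71 and the adjusted p was 0.244, an interval that holds both 0 and a rise. In that fit 43.8% of 16 probe sets passed in either direction, 31.2% with a lower value and 12.5% with a higher one.

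The spots of Ppp2ca agreed closely on the arrays where it was well covered. The SD over its filled spots was 0.00931 and 0.0164 in experiment 1 and 0.0142 and 0.0524 in experiment 2, against array medians over probe sets of 0.123, 0.0748, 0.107 and 0.0946. It ranked between the smallest and the third smallest of 16 or 17 probe sets on these 4 arrays. On the array of experiment 3 its spot SD was 0.369, the second widest of 17. The Ppp3cb spots were wider, with an SD of 0.234 on 3 spots and 0.252 on 6 spots on the arrays of experiments 1 and 2 with stimulated RNA in Cy3. On their swap partners with stimulated RNA in Cy5 the Ppp3cb SDs were 0.0721 and 0.0775, below the array medians. Probes of 1 array share their hybridisation, so these SDs describe spots and not replicates.

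The difference between both phosphatases was taken array by array, which removes any shift common to an array. Ppp3cb minus Ppp2ca was -0.54 in experiment 1, -0.77 in experiment 2 and -1.16 in experiment 3, where 1 array served. The mean was -0.83 ± 0.313 (SD, n = 3), so that Ppp3cb was lower than Ppp2ca in 3 of 3 experiments. The exact two-sided sign-flip permutation test gave p = 0.25, the smallest that 3 experiments allow in this test, which therefore cannot reach the threshold. From arrays with stimulated RNA in Cy3 the mean difference was -0.94, and from those with it in Cy5 it was -0.49 over 2 experiments. With experiment 1 turned it was -0.46 (exact permutation p = 0.5), as that experiment then stood at 0.54. The mean difference was -0.97 without experiment 1, -0.85 without experiment 2 and -0.66 without experiment 3. The wide value of experiment 3 came from the array with Ppp2ca at 0.82 on 3 spots and Ppp3cb at -0.34.

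Among the 15 probe sets tested, Ppp3cb, Calm2 and Pvalb were at ranks 1, 2 and 4 from the lowest mean with experiment 1 as titled. With experiment 1 turned they were at ranks 3, 1 and 8. As titled, at ranks 3 and 5 were Myh1, a fast myosin heavy chain, at -0.58, and Tnni2, the fast troponin I, at -0.43. These 5 were the probe sets that passed with a lower value, and Mb and Ldhb were the 2 that passed with a higher one. Lower on 6 of 6 arrays were 33.3% of the sets, and 66.7% had 1 sign on all 6. The mean differences of Calm2 from Ppp3cb and of Pvalb from Calm2 were smaller than their SDs over the experiments. With 3 experiments the exact permutation test cannot go below 0.25, so it cannot decide whether these genes differ. Calm2 minus Ppp3cb was 0.02 ± 0.238 (exact permutation p = 1, n = 3) and Pvalb minus Calm2 was 0.14 ± 0.304 (exact permutation p = 0.5, n = 3). Pvalb minus Ppp3cb was 0.17 ± 0.0854, with Pvalb the less negative in 3 of 3 experiments (exact permutation p = 0.25, the smallest possible).

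**Figure D3:**
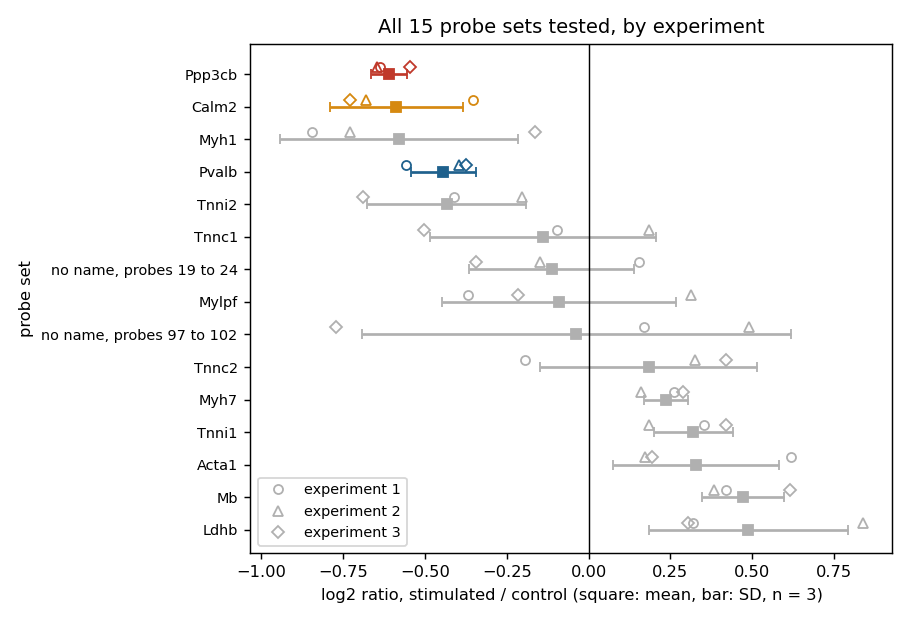
Log2 ratio of stimulated over control for the 15 probe sets tested, as experiment values (open symbols), mean (squares) and SD (bars, n = 3), ordered by mean. Ppp3cb, Calm2 and Pvalb (coloured) lie at -0.61, -0.59 and -0.44, and their 9 experiment values are all below 0.

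The likeness of other genes was measured by the root mean square difference in log2 ratio over the 6 arrays, among 12 named genes with a value on all of them. The nearest to Ppp3cb were Pvalb (0.239) and Calm2 (0.275). The nearest to Calm2 were Ppp3cb (0.275) and Tnni2 (0.309), and those to Pvalb were Ppp3cb (0.239) and Tnni2 (0.270). The farthest from all 3 was Ldhb, which encodes the heart-type lactate dehydrogenase subunit, at 1.14 from Ppp3cb. The genes share arrays and labelled extracts, so these are descriptions.

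Lists of related genes reached the array in small part, and their counts stand beside 33.3% of all tested sets lower and 13.3% higher, with experiment 1 as titled. With it turned or left out, no probe set passed in limma (0 and 6 at an unadjusted p under 0.05). Of 13 calcium-binding EF-hand proteins of muscle, 5 were on the array and tested, and 2 of them, Calm2 and Pvalb, passed with a lower value and none with a higher one. The other 3 did not pass, namely the slow troponin C Tnnc1 at -0.14, the fast troponin C Tnnc2 at 0.18 and the fast regulatory light chain Mylpf at -0.09. The median of the 5 was -0.14, against -0.09 over all 15 probe sets. Of 25 calcineurin pathway genes, 3 were on the array and 2, Ppp3cb and Calm2, were tested and fell (median -0.60). The regulatory subunit of calcineurin, the NFAT factors and the Rcan inhibitors had no named probe set. Of 8 calcium store and pump genes, Pln alone was on the array, untested, and of 6 phosphatase 2A genes Ppp2ca alone.

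Genes of both fibre programmes were counted against the same shares, 33.3% lower and 13.3% higher, and likewise none passed with experiment 1 turned or left out. Of 6 slow fibre genes linked to calcineurin activity, 4 were tested (median 0.28), and 1, the oxygen store myoglobin (Mb, 0.47), passed. Of those that did not pass, Tnni1 (0.32) and Myh7 (0.24) lay above 0 and Tnnc1 (-0.14) below. Of 8 fast fibre genes, 5 were tested (median -0.43) and 3 passed with a lower value, namely Myh1, Tnni2 and Pvalb itself. The fast genes that did not pass were Tnnc2, above 0 at 0.18, and Mylpf at -0.09.

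In experiments 1 and 3 the gaps between dye orientations of all 3 calcium genes were above the median of the probe sets. For Pvalb this also held in experiment 2. In experiment 1 the gaps between both arrays of the swap were 0.32 for Calm2, 0.27 for Pvalb and 0.23 for Ppp3cb, the 3 widest of 15, against a median gap of 0.155. In experiment 3 the gap of Pvalb was 0.43, the widest, and that of Ppp3cb was 0.41, the third widest, against a median of 0.153. Pvalb and Ppp3cb were there the less negative with stimulated RNA in Cy3, and Calm2 the more negative. In experiment 2 the gaps were 0.24 for Pvalb, 0.14 for Calm2 and 0.03 for Ppp3cb, the last the second smallest, against a median of 0.195. The gaps did not run in 1 direction over the experiments for Ppp3cb and Pvalb. For Calm2 they did, with the array with stimulated RNA in Cy3 lower by 0.32, 0.14 and 0.24 in experiments 1, 2 and 3. With a dye term fitted over the 6 arrays, limma gave Calm2 a term of -0.12 with an unadjusted p of 0.0883, the smallest of 15, and an adjusted p of 0.948 for each of the 3 genes. From arrays with stimulated RNA in Cy3 alone, Ppp3cb was at -0.59 and Calm2 at -0.70, with limma adjusted p = 0.0256 and 0.0153, and Pvalb at -0.37 with 0.0731. From the arrays with it in Cy5 alone they were at -0.63, -0.47 and -0.52, with limma adjusted p = 0.0545, 0.0943 and 0.0884, and no probe set passed.

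The calls were lost with experiment 1 turned, without experiment 1 and without experiment 2. In the turned fit and in the fit without experiment 3, limma gave every probe set the same standard error (0.293 and 0.166). The p-values of those fits therefore do not measure each gene's own spread. Without experiment 1 the standard error of Calm2 was 0.124. With the sign of experiment 1 turned, Ppp3cb stood at -0.19 (95% interval -0.78 to 0.41), Calm2 at -0.35 (-0.95 to 0.25) and Pvalb at -0.07 (-0.67 to 0.53), each with a limma adjusted p of 0.892. None of the 15 probe sets passed in limma then, and 0 had an unadjusted p under 0.05. Without experiment 1 they stood at -0.60, -0.70 and -0.39, with limma adjusted p = 0.0964, 0.0964 and 0.125, and no probe set passed, while 6 had an unadjusted p under 0.05. Without experiment 2 they stood at -0.59, -0.54 and -0.47, each with an adjusted p of 0.0986 in limma. Without experiment 3 they stood at -0.64, -0.52 and -0.48 with adjusted p = 0.0108, 0.0268 and 0.0347 in limma. By the day in the file headers, when the images were quantified, experiments 1 and 2 share a day and experiment 3 has its own, so the last values are those within a day. The sign stayed negative for these 3 genes in each of these fits.

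**Figure D4:**
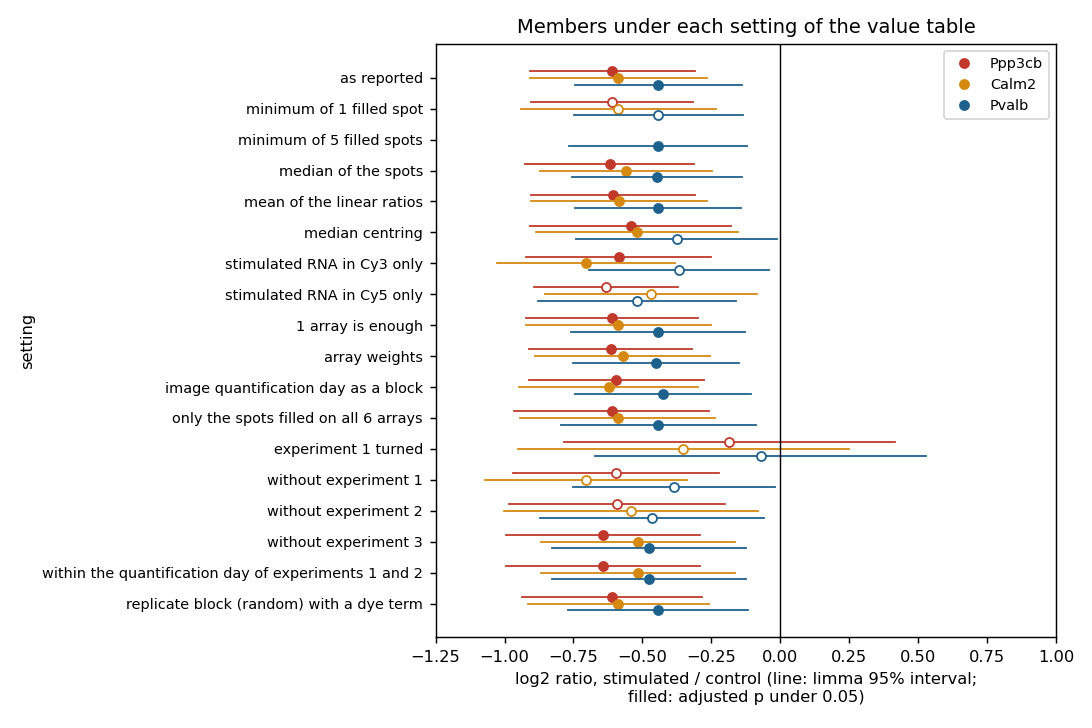
Log2 ratio of stimulated over control with limma's 95% interval for Ppp3cb, Calm2 and Pvalb under each way of computing it from the value table, with filled points for adjusted p under 0.05. All estimates are below 0, and with experiment 1 turned they shrink to -0.19, -0.35 and -0.07 with intervals that hold 0.

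The scanner files name no gene, so a spot set had to be matched to each gene through its deposited ratios in experiments 2 and 3. Read with their own files, none of the 3 genes matched a set. With the arrays of experiment 2 read from the other array of the swap, Pvalb matched 1 set (residual 0.110 log2, next set 0.294), while Ppp3cb and Calm2 were both nearest to the same other set (0.157 and 0.159) and neither was accepted. The background-subtracted log2 ratio of the matched Pvalb set was 0.61 in experiment 1, -0.37 in experiment 2 and -0.43 in experiment 3, with a mean of -0.06, and the values of experiments 2 and 3 were fixed by the match. The scanner value of experiment 1, as labelled, was thus opposite in sign to the deposited -0.56. With normexp background correction and loess the same set gave 0.19, -0.07 and -0.01, a mean of 0.04 ± 0.138 (SD, n = 3). With experiment 1 turned these means were -0.47 background-subtracted and -0.09 with loess, and without experiment 1 they were -0.40 and -0.04.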

How the data were processed

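Values from 6 arrays with 2 dyes each were used. As deposited by the authors, the value table gives 1 linear ratio for each spot, and its direction was read from the sample titles. How it was scaled, centred and background-corrected, and why some cells are empty, is not given in the sources used here. Its column medians were 0.974, 1.07, 1.07, 0.938, 0.978 and 1.26. Per the file headers, each scanner file lists spot intensity and local background intensity, written by image quantification software (version 5.5), without gene names. Per the labels' protocols, a gene's 6 spots were averaged. A single symbol was attached to 120 probes, several to 0, and 12 carried no symbol. On 1 array 6 values of exactly 1 (CAMTA1) were left out as filler. The precision is limited by the number of arrays.

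The log2 ratio of each filled spot was averaged over the spots of a set (at least 3 filled), turned to stimulated over control, and averaged over both arrays of a swap. The 3 experiments were tested against 0 with limma 3.58.1 in R 4.3.3 (lmFit and eBayes, two-sided, Benjamini-Hochberg over the 15 sets with values on all 6 arrays). A run on simulated, independent sets checked only that the mean log2 ratio was recovered, and not the error rate for sets that share arrays. Stimulated and control RNA share each array, so the samples are paired by design. The members and lists were chosen with earlier results of these data known. Named genes were all 4 members, the 2 nearest genes to each, and the members of the lists with values. Scanner intensities were read with limma (normexp offset 50, loess), as an alternative for Pvalb. A spot set was accepted as a gene's where its residual was at most 0.12 and the next set's at least 2 times as large. Alternatives covered the spot minimum, spot averaging, centring, dye orientation, weights, block, quantification day, the direction of experiment 1 and leaving out each experiment.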

Additional observations from a re-analysis of the deposited data

How the results depend on the processing

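Over 16 other ways of computing it from the value table, Ppp3cb, Calm2 and Pvalb kept a negative ratio wherever they were tested (Ppp3cb -0.64 to -0.19, Calm2 -0.70 to -0.35, Pvalb -0.52 to -0.07), and passed in limma in 10 of 15, 10 of 15 and 9 of 16. With a minimum of 1 filled spot, which added 1 probe set to the fit, the values stayed at -0.61, -0.59 and -0.44 with adjusted p = 0.0560, 0.0572 and 0.0572 in limma, and 0 of 16 sets passed, 9 at an unadjusted p under 0.05. With a minimum of 5, Ppp3cb and Calm2 were not tested and 4 of 10 sets passed, in a fit where limma gave every set the same standard error (0.155). From stimulated RNA in Cy5 only, the values were -0.63, -0.47 and -0.52 and 0 sets passed (5 unadjusted). In Cy3 only, Pvalb was at -0.37, and with median centring at -0.38. With experiment 1 turned they were -0.19, -0.35 and -0.071 and 0 sets passed. Leaving out 1 experiment gave -0.64 to -0.59, -0.70 to -0.52 and -0.48 to -0.39, and 0 to 5 sets past the threshold against 7 with all 3. Ppp2ca moved from 0.02 over 2 experiments to 0.35 from Cy3 only and to 0.28 with 1 array enough, each over 3 experiments. Both settings take in the array of experiment 3 at 0.82, which the value of 0.02 leaves out. The cause of the changes across settings was not tested. When the 6 arrays were fitted with a random replicate block per experiment and a dye term (correlation 0.706), the values were -0.61, -0.59 and -0.44, limma adjusted p = 0.00389, 0.00389 and 0.0219, and 7 sets passed. The block changed no call, and limma gave every probe set the same standard error (0.164) in that fit. Only the spots filled on all 6 arrays, an alternative chosen after seeing the data, gave -0.61, -0.59 and -0.44, and 6 of 13 sets passed. There too every set had the same limma standard error (0.172). The quantification day as a block left 7. In the scanner intensities the matched Pvalb set turned positive with normexp and loess (0.039), with no background correction (0.024), with plain subtraction and loess (0.054) and without marked spots (0.039), each with experiment 1 as labelled. It was negative in the other 2 of these 6 processings (-0.063 without normalization, -0.086 with median centring), and in all 12 combinations with experiment 1 turned or left out (-0.47 to -0.0043). Few probe sets, 3 experiments and empty spots (83 to 102 of 132 filled per array) limit the precision.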
